A study of Mus musculus with 2 samples.

Results

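Cxcl12, its signalling receptor Cxcr4 and the atypical chemokine receptors Ackr1, Ackr3 and Ackr4 were read as 5 genes of the 22508 genes counted in single cells of mouse liver. They were taken by gene symbol, and all 5 stood in the table. The data come from a pair of Chromium 3′ libraries that form 1 group, named WT (replicates 1 and 2), made from enzyme-dissociated and Percoll-cleaned livers of 8-week-old C57BL/6 mice. No transgene, deletion or treatment beyond the dissociation is named in the labels, and they do not say whether the samples came from separate animals. The table gave 9703 cells and whole numbers of unique molecular identifiers (UMIs, each standing for 1 captured RNA molecule).

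Chemokines are small secreted proteins that guide cells which carry the matching receptor. Cxcl12 is known as a niche and homing factor that binds Cxcr4, a G protein-coupled receptor of leukocytes and blood-forming cells. Atypical chemokine receptors bind chemokines without the usual G protein signal and remove or move the ligand: Ackr3 takes up Cxcl12 and Cxcl11, Ackr4 takes up Ccl19, Ccl21 and Ccl25, and Ackr1 binds many inflammatory chemokines on venular endothelium. Stellate cells are the vitamin A-storing pericytes of the liver sinusoid, and they lie between its endothelium and the hepatocytes.

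Cells were placed in classes by the UMIs of fixed markers and are called "-like" for that reason. The 2 libraries differed in what they held. Replicate 2 gave 2320 stellate-like cells (99.1% of its kept cells), which carried a median of 10 of the 10 stellate markers, while replicate 1 gave 9 such cells. The other 17 classes of at least 20 cells came from replicate 1, with 2650 sinusoidal endothelial-like and 2444 Kupffer-like cells as the largest. Replicate 1 had 40645060 UMIs in 7362 cells and replicate 2 had 11867207 UMIs in 2341 cells, with medians of 4738.5 and 5012 UMIs per cell. 5 barcodes occurred in both libraries. Since no class of 20 cells was found in both, no test across samples was possible: intervals are 95% and cover counting error only, and stellate-like values stand in another library than all values they are set against, so library and class cannot be told apart there.

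The 5 genes lie on 3 chromosomes of GRCm38. Cxcl12 is at chr6:117168535-117181367 on the plus strand, Cxcr4 at chr1:128588199-128592293 on the minus strand and Ackr3 at chr1:90203980-90216751 on the plus strand. Ackr1, at chr1:173331886-173333750 on the minus strand, shares 361 of its 1405 exonic bases (25.7%) with the adhesion gene Cadm3 on the same strand. Ackr4, at chr9:104084157-104126933 on the minus strand, lies wholly within the plus-strand gene Acad11, and 8.90% of its exonic bases overlap exons of that gene. Reads from the bases that Ackr1 and Cadm3 share on the same strand cannot be assigned to 1 gene by sequence alone. Ackr4 and Acad11 lie on opposite strands, so this does not hold for them where the strand of a read is kept.

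The 250 bases before the start of the ligand gene and of its receptor gene are shown because the ligand and its signalling receptor had their highest levels in different cell classes. The sequences are from RefSeq (GRCm38.p6), 5′ to 3′ on the gene's strand, chr6:117168285-117168534 (plus) for Cxcl12 and chr1:128592300-128592549 (minus) for Cxcr4, and capitals mark each match to the GC box GGGCGG or its reverse complement CCGCCC.
Cxcl12: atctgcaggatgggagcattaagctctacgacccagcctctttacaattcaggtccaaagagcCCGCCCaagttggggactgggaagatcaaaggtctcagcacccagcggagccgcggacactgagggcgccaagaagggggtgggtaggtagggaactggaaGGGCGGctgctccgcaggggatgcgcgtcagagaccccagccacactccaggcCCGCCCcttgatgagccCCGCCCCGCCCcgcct
Cxcr4: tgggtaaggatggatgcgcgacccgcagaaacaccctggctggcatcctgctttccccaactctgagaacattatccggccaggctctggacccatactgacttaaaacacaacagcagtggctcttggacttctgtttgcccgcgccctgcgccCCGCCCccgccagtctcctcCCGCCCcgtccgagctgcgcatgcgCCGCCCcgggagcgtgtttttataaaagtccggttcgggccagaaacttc
Counted on both strands with overlapping matches kept apart, the Cxcl12 window holds 5 GC boxes at 64.4% GC and the Cxcr4 window 3 at 61.2% GC. Of all 32851 promoter windows of this length, 32.7% hold a GC box, and the median is 52.4% GC. The letters TATAAA or their reverse complement occur in the Cxcr4 window and not in the Cxcl12 window, against 12.4% of all windows. These are matches of letters and no measure of binding.

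Cxcl12 RNA was found in every stellate-like cell. The 2320 cells held 59249 UMIs, or 5042 CPM (the UMI share of the class scaled to 1000000, 5001 to 5082), and 100% of them had a UMI (at least 99.8%). No cell had fewer than 3 UMIs, the median cell had 25, and the highest had 113. Cell by cell, the level ran from 2737 CPM at the 5th percentile to 8217 CPM at the 95th, with a median of 4969 CPM. After each cell was thinned to 1000 UMIs, 98.9% still showed a Cxcl12 UMI. The 9 stellate-like cells of replicate 1 all carried Cxcl12 too, at 3085 CPM (2662 to 3556). Of their 190 Cxcl12 UMIs 91 were in 1 cell, and their median depth was 1541 UMIs.

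**Figure D1:**
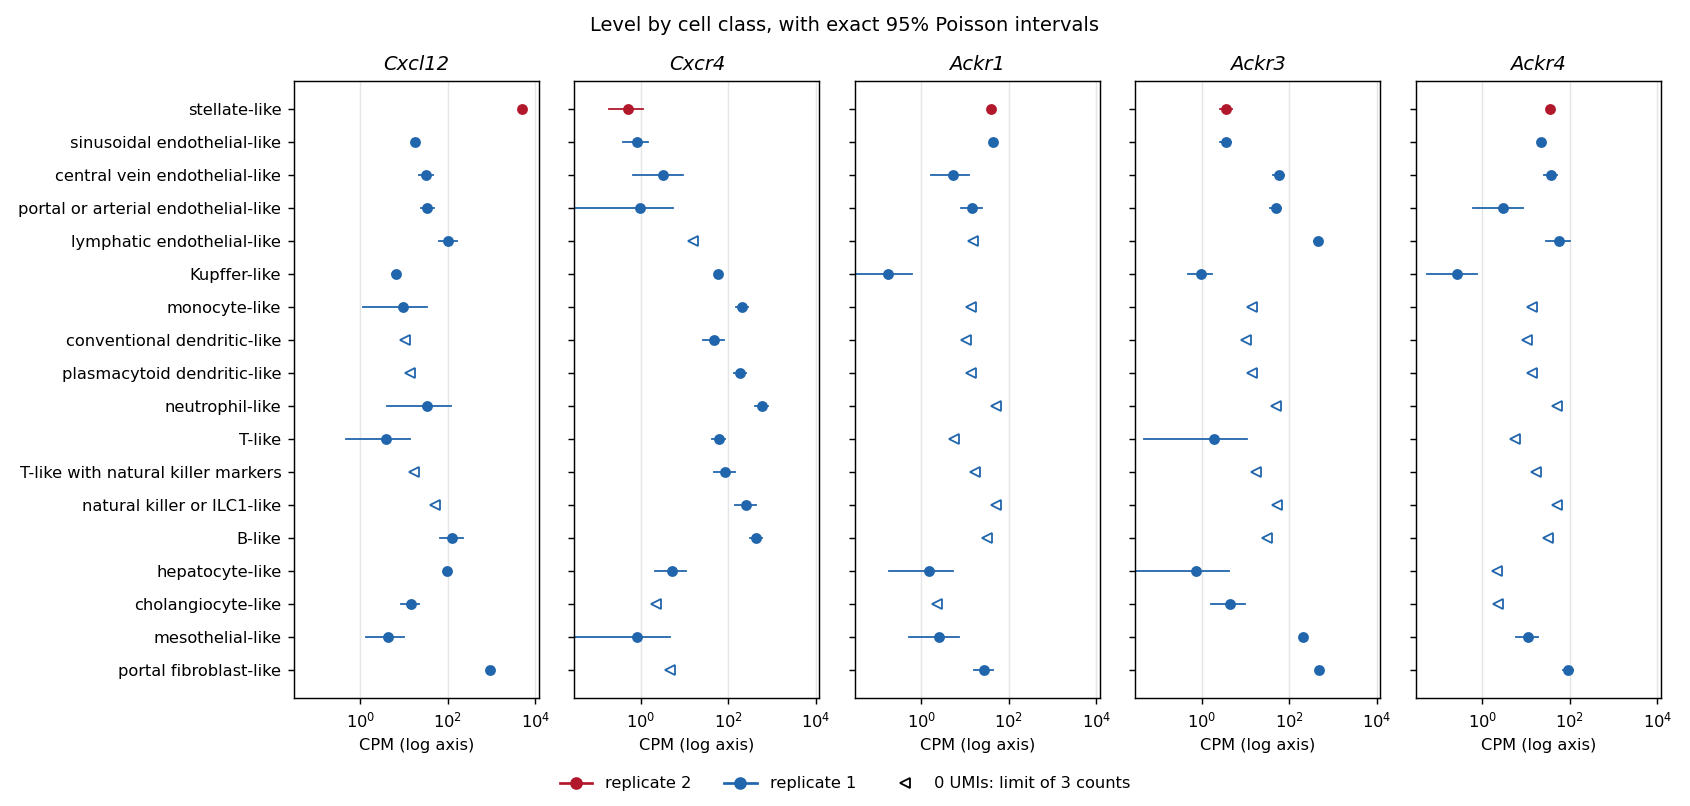
Level of each of the 5 genes in 18 cell classes as CPM on a log axis, with points for the class sum, lines for the exact 95% Poisson interval, and open triangles at the limit of 3 counts where no UMI was found. Cxcl12 stands at 5042 CPM in stellate-like cells and 916 CPM in portal fibroblast-like cells, Cxcr4 above 40 CPM in the 9 leukocyte classes alone, and Ackr3 at 480, 459 and 209 CPM in portal fibroblast-like, lymphatic endothelial-like and mesothelial-like cells.

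Portal fibroblast-like cells, matrix-forming cells of the portal tract, were next in order. Stellate-like cells had 5042 CPM of Cxcl12, against 916 CPM (845 to 992) in the 94 portal fibroblast-like cells, a ratio of 5.50 (5.08 to 5.97). Among the 5 genes this was the 1 whose highest class stood at least 2-fold over the next, a property of 24.9% of the 9239 genes with at least 50 UMIs over that pair of classes, and 3.14% of the same 9239 genes met it with the stellate-like class on top. The fibroblast value was unevenly spread. Of 94 cells, 51 had a Cxcl12 UMI, and 10 cells held 70.7% of the 607 UMIs.

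The 22 portal fibroblast-like cells with at least 5 Cxcl12 UMIs stood at 3014 CPM of Cxcl12, against 0 to 4 UMIs per cell in the other 72. They carried a median of 3 of the 10 stellate markers, with 13 UMIs of the retinol-esterifying enzyme Lrat, 33 UMIs of the collectin Colec11 and 0 of Reln, a secreted stellate marker. Colec11 was read in 10 of the 22 cells, 18 of its UMIs in 1 cell, and stood at 179 CPM, against 8.36 CPM in the other 72 cells. In the 29 cells with 1 to 4 UMIs and the 43 cells with none, the median was 2 markers, with 0 and 1 UMI of Lrat. Stellate-like cells had a median of 10 markers. The stellate gate needed at least 5 markers and a minimum of marker UMIs. Cells that passed it as well are not in the portal fibroblast-like class, so the gates limit these marker counts. The 22 cells were chosen by their Cxcl12 UMIs, so their other genes are a description. In them Ackr3 stood at 114 CPM, against 621 CPM in the other 72 cells, and Pi16, an adventitial fibroblast marker, at 86.9 CPM, against 2147 CPM. The elastic fibre gene Mfap4 went the other way, at 1086 CPM in the 22 cells and 533 CPM in the 72. The part of stellate RNA in these values was not tested.

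Outside these classes Cxcl12 was low. Hepatocyte-like cells had 134 UMIs, or 97.7 CPM (81.9 to 116), in 57 of 178 cells (32.0%). Their stellate markers were nearly absent: the 51 cells with 1 to 4 Cxcl12 UMIs had 9 stellate marker UMIs in all, and the 6 cells with 5 or more had 1. Those 51 cells were deep, with a median of 16374 UMIs, against 1707 UMIs in the 121 hepatocyte-like cells without Cxcl12. Thinned to 1000 UMIs, 7.04% of hepatocyte-like cells (3.43 to 12.6) had a Cxcl12 UMI, against 0.484% of Kupffer-like cells (0.242 to 0.864). Portal or arterial endothelial-like cells had 4.21% (1.16 to 10.4) and cholangiocyte-like cells 3.03% (0.629 to 8.60), with intervals that overlap the hepatocyte-like one.

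High class sums in small classes rested on few cells. The 126 CPM of B-like cells were 12 UMIs in 1 of 30 cells, and of the 102 CPM in lymphatic endothelial-like cells, 18 of 20 UMIs were in 1 cell. Sinusoidal endothelial-like cells, which line the blood channel next to the stellate cell, had 17.8 CPM (15.6 to 20.1) and 5.17% of cells with a UMI. Their 10 cells with at least 5 Cxcl12 UMIs carried a median of 7 of the 10 stellate markers, and in the 2513 cells with no Cxcl12 UMI the median was 1. The part of stellate RNA in the endothelial value was not tested. Kupffer-like cells had 6.56 CPM and 2.86% of cells with a UMI, T-like cells 3.79 CPM and 1.50%. No UMI was found in conventional or plasmacytoid dendritic-like cells, natural killer or ILC1-like cells or T-like cells with natural killer markers, where 3 counts would give 10.2 to 51.0 CPM.

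**Figure D2:**
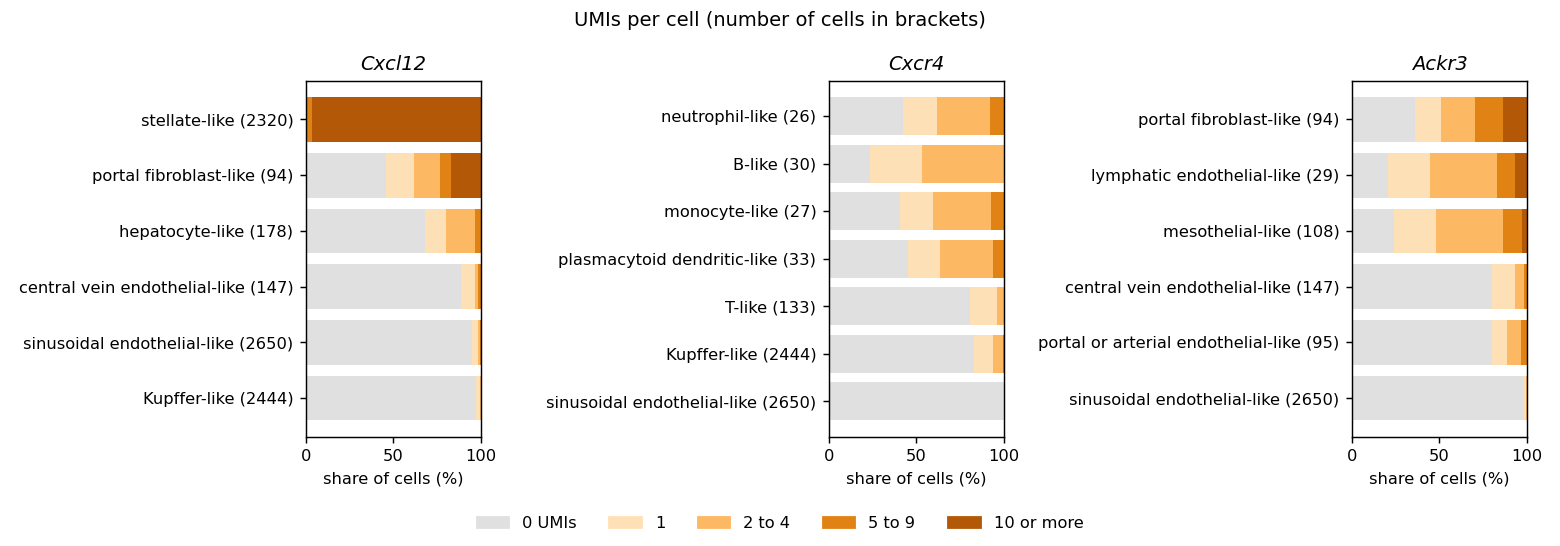
Share of cells with 0, 1, 2 to 4, 5 to 9 and 10 or more UMIs of Cxcl12, Cxcr4 and Ackr3 in the classes named on each axis, with the number of cells in brackets. Of 2320 stellate-like cells 2237 had at least 10 Cxcl12 UMIs, and 16 of 94 portal fibroblast-like cells did, while cells with Cxcr4 or Ackr3 mostly had 1 to 4 UMIs of it.

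Cxcr4 was a leukocyte gene in these cells. Its level was highest in neutrophil-like cells, at 585 CPM (408 to 814, 35 UMIs in 26 cells), and in B-like cells, at 432 CPM (310 to 586, 41 UMIs in 30 cells). The ratio of these levels was 1.35 (0.838 to 2.18), so their order was not resolved. Natural killer or ILC1-like cells followed at 255 CPM, monocyte-like cells at 205 CPM and plasmacytoid dendritic-like cells at 189 CPM. Neighbours in this order did not differ beyond counting error down to plasmacytoid dendritic-like cells, which stood 2.21-fold (1.20 to 4.29) above T-like cells with natural killer markers, at 85.5 CPM. T-like cells had 60.7 CPM, Kupffer-like cells 59.0 CPM and conventional dendritic-like cells 47.8 CPM, again with overlapping intervals.

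Below the leukocytes came a gap. Conventional dendritic-like cells stood 9.37-fold (3.54 to 27.4) above the next class, hepatocyte-like cells, at 5.10 CPM (7 UMIs). Sinusoidal endothelial-like cells had 11 Cxcr4 UMIs in 2650 cells, or 0.798 CPM, and stellate-like cells 6 UMIs in 2320 cells, or 0.511 CPM (0.187 to 1.11). Lymphatic endothelial-like, cholangiocyte-like and portal fibroblast-like cells had none, where 3 counts would give 15.3, 2.22 and 4.53 CPM. The 9 classes above the gap are the macrophage, monocyte, dendritic, neutrophil and lymphoid ones.

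Kupffer-like cells, the resident macrophages, held most of the receptor RNA. They had 684 of the 944 Cxcr4 UMIs of gated cells in replicate 1 (72.5%) while making up 39.3% of those cells. A UMI was read in 423 of 2444 (17.3%, 15.8 to 18.9) at a median of 4084 UMIs per cell, against 8 of 2650 sinusoidal endothelial-like cells (0.302%) at 4882.5 UMIs. In 273 of the 423 cells it was 1 UMI. The level was alike in shallow and deep cells, at 64.3, 63.3 and 55.9 CPM over 3 ranges of rising UMI number, while the share with a UMI was 8.20%, 17.7% and 26.0%. Kupffer-like cells with at least 2 of the 3 cycling markers had 68.9 CPM (52.1 to 89.5), against 58.3 CPM (53.8 to 63.0) in the rest.

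Ackr3, the scavenger of Cxcl12, was read outside both the main source and the Cxcr4 cells. Portal fibroblast-like cells had 480 CPM (429 to 536), with a UMI in 60 of 94 cells, and lymphatic endothelial-like cells 459 CPM (369 to 564), with a UMI in 23 of 29. The ratio was 1.05 (0.825 to 1.34), and it lay at 0.770 when each class needed 1 fewer marker and at 0.824 when it needed 1 more. Mesothelial-like cells, the covering layer of the liver, had 209 CPM (184 to 237), with a UMI in 82 of 108 cells. Lymphatic endothelial-like cells stood 2.20-fold (1.71 to 2.80) above mesothelial-like cells, and these 3.66-fold (2.72 to 4.99) above central vein endothelial-like cells.

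The vein and artery classes came next, and both differed from the sinusoid. Central vein endothelial-like cells had 57.2 CPM of Ackr3 (55 UMIs in 147 cells), against 3.48 CPM in sinusoidal endothelial-like cells (48 UMIs in 2650 cells), a ratio of 16.4 (11.0 to 24.7). Portal or arterial endothelial-like cells had 49.4 CPM (51 UMIs in 95 cells), 14.2-fold (9.39 to 21.5) above sinusoidal endothelial-like cells. The same ratio was 2.87 (1.47 to 5.36) when 1 fewer marker was needed and the class grew to 226 cells. Stellate-like cells had 42 Ackr3 UMIs in 2320 cells, or 3.57 CPM (2.58 to 4.83), and Kupffer-like cells 0.949 CPM with a UMI in 0.450% of cells.

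Among gated cells, those with Ackr3 and those with Cxcr4 were nearly separate. Of 8532 gated cells, 567 had a Cxcr4 UMI, 307 had an Ackr3 UMI and 2 had both. Both of these were Kupffer-like, where the product of the shares gives 1.90 cells. Cells of 2 or more gates were left out, which limits this count. In replicate 1 these were 195 cells, 68 with Ackr3 and 32 with Cxcr4, and their joint count was not taken. The 3 classes highest in Ackr3 held 0.106% of the Cxcr4 UMIs in gated cells of replicate 1 (1 UMI in mesothelial-like cells). They held 78.9% of the Ackr3 UMIs in the same gated cells, which follows in part from choosing them by Ackr3. Portal fibroblast-like, lymphatic endothelial-like and mesothelial-like cells made up 1.51%, 0.467% and 1.74% of these cells. Of 1199 Ackr3 UMIs in kept cells of replicate 1, 305 lay in cells of 2 or more gates and 59 in cells of none. Neither enters that share. Ligand and receptor RNA were read together in some Kupffer-like cells: of 70 with a Cxcl12 UMI, 25 had Cxcr4, where the product gives 12.1. In 66 of these 70 cells it was 1 Cxcl12 UMI, and free RNA was not subtracted. The share of Kupffer-like cells with Cxcr4 was 8.20% in the lowest and 26.0% in the highest 3rd by UMI number. The parts of free RNA and depth in the joint count were not tested.

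Ackr4 lay in stromal cells and in the sinusoid. Portal fibroblast-like cells were highest, with 92.1 CPM (70.4 to 118) and a UMI in 26 of 94 cells. Lymphatic endothelial-like cells had 56.1 CPM, but 10 of their 11 UMIs were in 1 cell. Central vein endothelial-like cells had 36.4 CPM and stellate-like cells 35.7 CPM (32.4 to 39.3, a UMI in 14.5% of cells), a ratio of 1.02 (0.700 to 1.44). Stellate-like cells stood 1.62-fold (1.40 to 1.89) above sinusoidal endothelial-like cells, at 22.0 CPM with a UMI in 10.1% of cells. Kupffer-like cells had a UMI in 0.123%. Portal or arterial endothelial-like cells had 2.91 CPM, 3 UMIs in 95 cells, which was 0.132 of the sinusoidal level (0.0271 to 0.389) and 0.555 of it when 1 fewer marker was needed. The gene that encloses Ackr4, Acad11, an enzyme of fatty acid breakdown, reached 196 CPM in hepatocyte-like cells, where Ackr4 had 0 UMIs in 178 cells.

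Within portal fibroblast-like cells the scavengers of Cxcl12 and of Ccl19 and Ccl21 were read together. Of 26 cells with Ackr4, 23 also had Ackr3, where the product of the shares gives 16.6. For Cxcl12 and Ackr3 the count was 30 cells, where the product gives 32.6. Of 32 stellate-like cells with Ackr3, 13 had Ackr4, where the product gives 4.63, and none had Ackr1, where it gives 5.34. The counts for Ackr3 with Ackr4 were under the product in mesothelial-like cells, at 8 where it gives 9.11, and in central vein endothelial-like cells, at 4 where it gives 5.13. The portal fibroblast-like class was mixed. Its 22 cells with at least 5 Cxcl12 UMIs had 2 Ackr4 UMIs, against 59 in the other 72 cells, and were lower in Ackr3. Deeper cells show more UMIs of every gene, which raises such counts of 2 genes together. The parts of depth and of this mix were not tested.

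Ackr1 was close in level in stellate-like and sinusoidal endothelial-like cells. Stellate-like cells had 453 UMIs, 38.5 CPM (35.1 to 42.3), in 16.7% of cells, and sinusoidal endothelial-like cells 585 UMIs, 42.4 CPM (39.0 to 46.0), in 16.1% of cells, at medians of 5010 and 4882.5 UMIs. The stellate level was 0.909 of the sinusoidal one (0.802 to 1.03). Portal fibroblast-like cells had 27.2 CPM (18 UMIs) and portal or arterial endothelial-like cells 14.5 CPM (15 UMIs), 0.343 of the sinusoidal level (0.191 to 0.570). That ratio was 0.826 (0.633 to 1.06) when 1 fewer marker was needed, 0.596 when 1 more was needed and 0.528 with cells of 2 gates assigned, so the 2-fold difference was lost under each of these. Central vein endothelial-like cells had 5.20 CPM (5 UMIs), 0.123 of the sinusoidal level (0.0397 to 0.288). Kupffer-like cells had a UMI in 2 of 2444 cells (0.0818%), and 10 classes, all leukocyte classes other than Kupffer-like cells plus the lymphatic endothelial-like and cholangiocyte-like ones, had none.

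RNA of sinusoidal endothelial genes was also read in the stellate-like library, at a lower relative level than Ackr1. For 10 genes of the sinusoidal endothelium, the level in stellate-like cells was a median of 7.14% of that in sinusoidal endothelial-like cells, from 3.88% for Oit3 to 32.8% for the membrane-trafficking gene Ehd3. Of the 10 genes, 8 are the markers of the sinusoidal endothelial gate. Cells that passed both this gate and the stellate one were left out, so the choice of cells bears on these values. Gpr182 and Ackr2, which no gate used, stood at 8.60% and 14.4%. Ackr1 stood at 90.9%, Ackr3 at 103% and Ackr4 at 162% on the same measure. The Ackr3 value rested on 42 stellate and 48 sinusoidal UMIs, a ratio of 1.03 (0.662 to 1.59). Stellate-like cells with no UMI of the endothelial lectin Clec4g had 38.2 CPM of Ackr1 (32.7 to 44.3), against 38.8 CPM (34.4 to 43.6) in those with one. The 1034 stellate-like cells with at most 3 of the 8 sinusoidal markers had 38.1 CPM of Ackr1. The part of endothelial RNA in the stellate-like values of Ackr1, Ackr3 and Ackr4 was not tested.

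**Figure D3:**
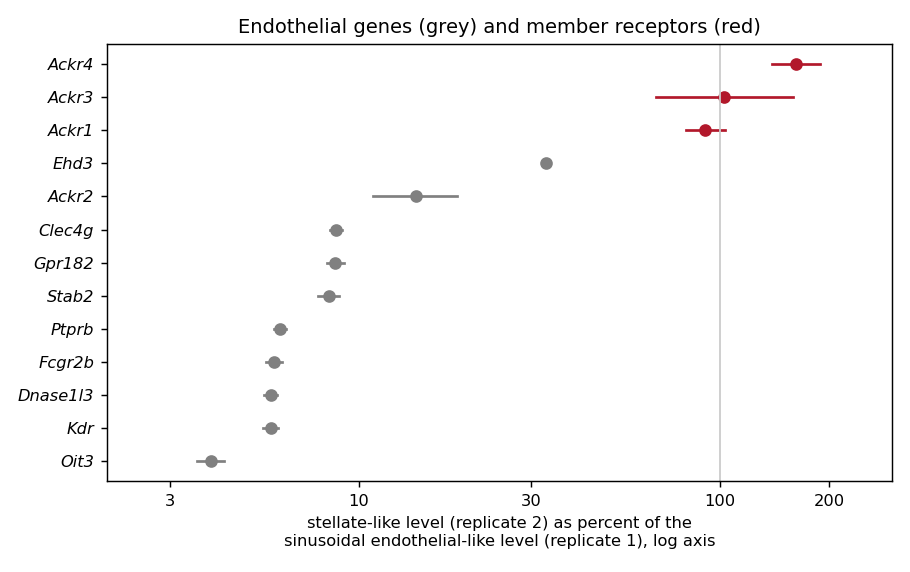
Level in stellate-like cells of replicate 2 as a percent of the level in sinusoidal endothelial-like cells of replicate 1, on a log axis with 95% intervals. The 10 endothelial genes (grey) lie between 3.88% and 32.8%, and the receptors Ackr4, Ackr3 and Ackr1 (red) lie at 162%, 103% and 90.9%. Of the grey genes, 8 are markers of the sinusoidal endothelial gate.

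Cadm3, which shares exonic bases with Ackr1, was read mainly in stromal cells. It stood at 195 CPM in stellate-like, 86.0 CPM in portal fibroblast-like and 4.79 CPM in sinusoidal endothelial-like cells. Stellate-like cells with a Cadm3 UMI had 41.7 CPM of Ackr1 (37.1 to 46.7), against 33.4 CPM (28.3 to 39.2) in those without. Portal fibroblast-like cells with a Cadm3 UMI had 63.0 CPM of Ackr1 (14 UMIs in 30 cells), against 9.09 CPM (4 UMIs in 64 cells) in those without. Neither gene had a UMI in the 22 portal fibroblast-like cells with at least 5 Cxcl12 UMIs, and the part of this mix was not tested. In sinusoidal endothelial-like cells 2594 of 2650 had no Cadm3 UMI, and these had 41.8 CPM of Ackr1 (38.4 to 45.4), against 62.1 CPM (40.2 to 91.7) in the 56 cells with one. Ackr1 was thus higher beside a Cadm3 UMI in each of these 3 classes, with intervals that overlap in all but the portal fibroblast-like one. The 3′ end of Cadm3 lies within Ackr1, 1372 bases from the 3′ end of Ackr1. The part of Cadm3 reads in the Ackr1 values was not tested.

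The next question was where along the lobule the genes were read. Stellate-like and sinusoidal endothelial-like cells were each given a score from 4 central and 4 portal landmark genes and split into 3 equal ranges, and the outer ranges were compared. Ackr4 and Ackr3 leaned to the central side in both classes, Ackr3 on few UMIs. Of the central landmarks of the sinusoidal score, Wnt2 and Cdh13 were also raised in central vein endothelial-like cells. Ackr3 stood 16.4-fold higher in those vein cells than in sinusoidal endothelial-like cells. The part of vein cells that missed their gate in the sinusoidal ratios was not tested. In stellate-like cells Ackr4 had 64.5, 33.9 and 10.4 CPM in the central, middle and portal range, and the central level was 6.19-fold (4.45 to 8.80) the portal one. In sinusoidal endothelial-like cells the levels were 34.9, 20.4 and 10.4 CPM and the ratio 3.34 (2.40 to 4.73). Splitting the stellate cells into 2 ranges in place of 3 gave 3.71.

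**Figure D4:**
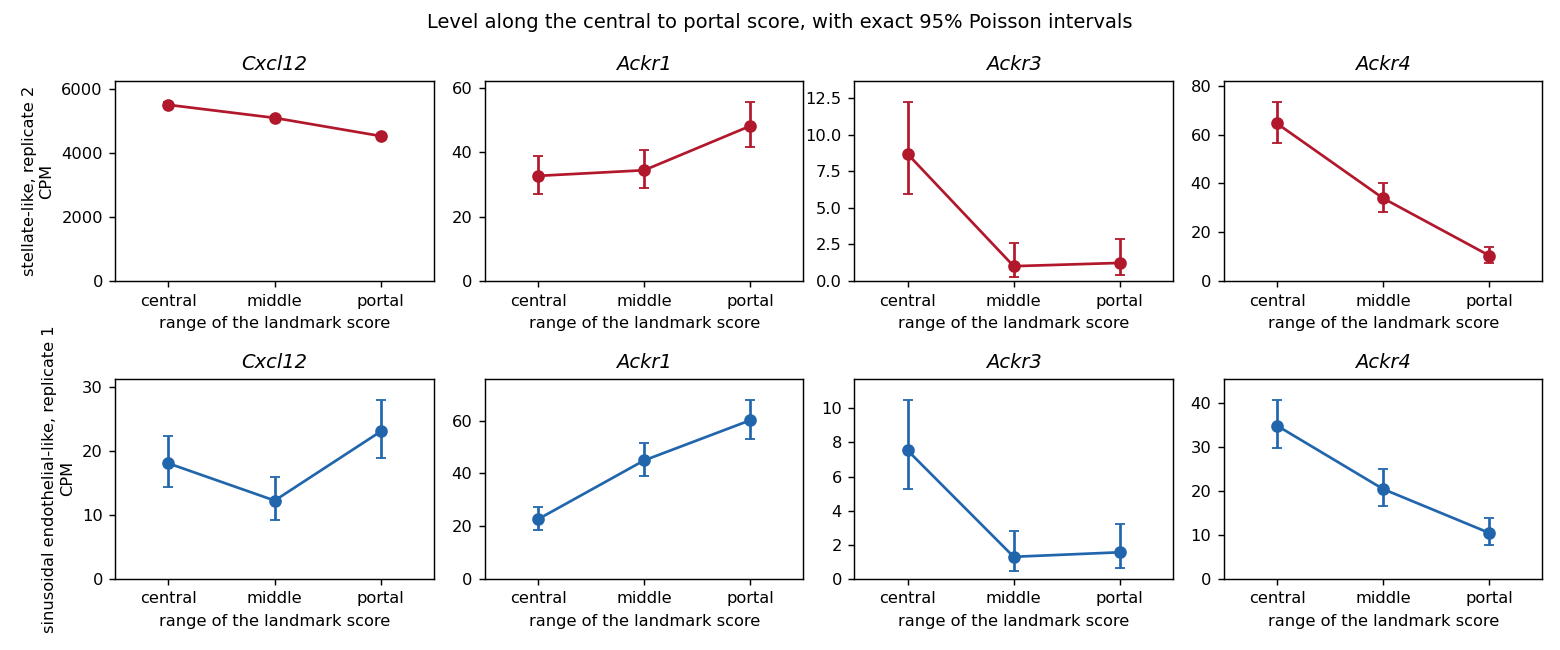
CPM of Cxcl12, Ackr1, Ackr3 and Ackr4 in the central, middle and portal range of a landmark score, in stellate-like cells of replicate 2 (upper row) and sinusoidal endothelial-like cells of replicate 1 (lower row), with exact 95% Poisson intervals and axes that start at 0. Ackr4 declines in both rows to 10.4 CPM in the portal range, and Ackr1 is highest there, at 48.2 CPM in the upper and 60.2 CPM in the lower row.

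Ackr1 leaned to the portal side in sinusoidal endothelial-like cells, with 22.6, 45.0 and 60.2 CPM from the central to the portal range and a ratio of 0.376 (0.297 to 0.472). In stellate-like cells it had 32.7, 34.4 and 48.2 CPM, a ratio of 0.678 (0.537 to 0.854) that did not pass 2-fold. Cadm3 ran the same way there, with 149, 188 and 246 CPM, and its part in the Ackr1 difference was not tested. Ackr3 was rare in both classes and most of its UMIs were in the central range, 33 against 5 portal UMIs in stellate-like cells and 35 against 7 in sinusoidal endothelial-like cells. The ratios were 7.0 (2.72 to 23.0) and 4.85 (2.12 to 12.9), and both sums are under the 50 UMIs set for a call.

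Cxcl12 itself changed little along the stellate score. It had 5512, 5105 and 4536 CPM in the central, middle and portal range, each with 100% of cells, and a central to portal ratio of 1.22 (1.19 to 1.24). In sinusoidal endothelial-like cells the ratio was 0.783 (0.580 to 1.05), and it was 1.24 as a mean over cells and 1.30 without the deepest 5% of cells, so it gave no direction. Cxcr4 had 5 UMIs over both outer stellate ranges and 10 over both sinusoidal ones.

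Calls at 2-fold with at least 50 UMIs set the members beside all genes. On the stellate score 3 members could be called and 1, Ackr4, was higher at the central end, where 1.11% of 9700 genes were higher and 1.03% lower. On the sinusoidal score 3 could be called, Ackr4 being higher and Ackr1 lower, where 0.969% of 9703 genes were higher and 1.31% lower. In central vein over sinusoidal endothelial-like cells 4 members could be called, with Ackr3 higher and Ackr1 lower, where 4.13% of genes were higher and 7.11% lower. For portal or arterial over sinusoidal endothelial-like cells Ackr3 was higher and Ackr1 and Ackr4 were lower, where 5.93% of genes were higher and 10% lower. With 1 fewer marker per class neither Ackr1 nor Ackr4 passed 2-fold, and with 1 more Ackr1 did not. Cxcl12, at 1.91 (1.30 to 2.73), was not called there but passed 2-fold in 5 alternatives, at 2.67 to 4.34. Of its 35 UMIs in portal or arterial endothelial-like cells, 14 were in 1 cell. In lymphatic over sinusoidal endothelial-like cells 3 of 4 members were higher, where 17.6% of genes were higher and 18.2% lower. Of these, Ackr3 stood at a ratio of 132 (91.9 to 191), and the UMIs of Cxcl12 and Ackr4 lay almost all in 1 cell each. Ackr1, with 0 UMIs in lymphatic cells, was at least 2.77-fold lower there, taking 3 counts as the limit over the class. Between portal fibroblast-like and stellate-like cells 2 of 4 members were higher, Ackr3 at a ratio of 134 (97.1 to 190) and Ackr4 at 2.58 (1.94 to 3.38), and Cxcl12 was lower, where 9.97% of genes were higher and 17.6% lower.

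Other genes of the pathway were read from fixed lists, and their counts of genes at least 2-fold above the next class stand beside 24.9% of all 9239 genes that could be called so. Of 3 further atypical or scavenging receptors, none was at least 2-fold above its next class. Gpr182, a scavenging receptor of endothelium known to bind Cxcl12, had 1330 CPM (1311 to 1349) in sinusoidal endothelial-like and 733 CPM in central vein endothelial-like cells. Ackr2, which takes up inflammatory CC chemokines, had 64.5 CPM in central vein and 37.9 CPM in sinusoidal endothelial-like cells, and 86.7 CPM in lymphatic endothelial-like cells. Ccrl2, which presents chemerin, was highest in neutrophil-like cells at 652 CPM.

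Of 8 other ligands of these receptors 7 were in the table, and 3 were at least 2-fold above the next class, where 24.9% of all genes were. Ccl21a, a lymphatic ligand of Ackr4, had 8114 CPM in lymphatic endothelial-like cells, against 3.79 CPM in the next class. Cxcl11, the other chemokine taken up by Ackr3, had 270 CPM in monocyte-like and 12.3 CPM in sinusoidal endothelial-like cells. Cxcl13, the B cell attractant, had 290 CPM in Kupffer-like cells. Ccl19 had 43.8 CPM in portal fibroblast-like and 24.5 CPM in stellate-like cells. Mif, which also binds Cxcr4, was highest in monocyte-like cells at 447 CPM, 1.55-fold (0.917 to 2.76) above the next class.

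Proteases known to cut Cxcl12 were counted for 4 of 6 listed genes, of which 2 were at least 2-fold above the next class. Dpp4, which trims the amino end of chemokines, had 603 CPM in sinusoidal endothelial-like and 541 CPM in mesothelial-like cells, and 39.4 CPM in stellate-like cells. The gelatinase Mmp2 had 551 CPM in portal fibroblast-like and 66.5 CPM in stellate-like cells, and Mmp9 had 1270 CPM in neutrophil-like cells. Of 14 genes for signalling and desensitisation of Cxcr4, 3 stood at least 2-fold above the next class, a share near the 24.9% of all genes. They were Rgs1, a brake on G protein signals, at 1639 CPM and the arrestin Arrb2 at 286 CPM in Kupffer-like cells, and Rgs16 at 96.9 CPM in lymphatic endothelial-like cells.

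Other chemokine receptors that stood at least 2-fold above the next class, with at least 50 UMIs over the classes, included Cxcr2 (1371 CPM) and Ccr1 (1020 CPM) in neutrophil-like cells, Ccr9 (1523 CPM) in plasmacytoid dendritic-like cells and Ccr7 (611 CPM) in B-like cells. Cxcr3 had 194 CPM in T-like cells with natural killer markers and met the same rule. Cxcr4 had no such single class. Among 5 niche factors of blood-forming cells, 2 were at least 2-fold above the next class. The adhesion molecule Vcam1 had 1234 CPM in Kupffer-like cells and stood at 447 CPM in stellate-like cells. Angpt1, a ligand of the endothelial receptor Tek, had 71.7 CPM in cholangiocyte-like cells, followed by 23.1 CPM in stellate-like cells. Kitl, the ligand of Kit, was highest in portal or arterial endothelial-like cells at 260 CPM and stood at 40.8 CPM in stellate-like cells.

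The medians of these lists moved little along the stellate score. Of 23 list genes that could be called between its outer ranges, none passed 2-fold, which is near the background of 1.11% of all genes higher and 1.03% lower, and the list medians lay between -0.40 and 0.09 on the log2 scale, against 0.01 for all genes. On the sinusoidal score none of 22 passed 2-fold, where 0.969% of all genes were higher and 1.31% lower, and the medians lay between -0.80 and 0.22, against 0.01 for all genes. In portal fibroblast-like over stellate-like cells all 3 proteases that could be called were higher. Their median log2 ratio was 1.10, against -0.15 for all genes. Among all genes 9.97% were higher in this comparison and 17.6% lower. Of the 24 list genes that could be called there, 5 were higher and 8 lower, and list medians ran from -1.50 to 1.10.

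The genes with the most similar pattern over the 18 class sums were found by Pearson's r of log2(CPM + 1) among 13117 genes, as a description, since the classes share libraries and depth. For Cxcl12 they were Cped1 (r = 0.845), Sparcl1 (0.831), Abcc9 (0.805), Slco2b1 (0.797) and Igsf10 (0.794). For Cxcr4 they were Tnfaip8l2 (0.962), Coro1a (0.958), Ttc7 (0.957), Dock2 (0.957) and Arhgap30 (0.957). Fxyd6 (0.972), Gm15844 (0.946) and Flrt2 (0.944) led for Ackr3, Gm49526 (0.974), Nhs (0.964) and Ecm2 (0.957) for Ackr4, and Tmem47 (0.939) and Pcdhb21 (0.939) for Ackr1. Among the members, r was 0.820 for Ackr3 and Ackr4, 0.735 for Ackr1 and Ackr4, -0.770 for Cxcr4 and Ackr3 and -0.504 for Cxcl12 and Cxcr4.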

How the data were processed

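The deposited table holds raw UMI counts per gene and cell, and Cell Ranger 2.1.1, Seurat 3.1 and GRCm38 are named per the submitters' processing notes. Which cells the authors removed is not given in the sources used here. The number ending each barcode was read as the replicate number. A cell was kept with 200 genes or more if mitochondrial UMIs made up no more than 20%, which removed 597 cells (8.11%) of replicate 1 and 0 of replicate 2. A cell received a class if it carried a minimum number of the class's markers, and a minimum number of marker UMIs per 1000 for the commonest classes; these minimums were set after the counts were seen. Cells that passed 2 or more gates (195 and 20 in replicates 1 and 2) were left out as possible doublets, except that cells of the T and natural killer gates alone formed a class of 50 cells, not among the 195, 359 cells passed none, and no doublet caller was run. Free RNA was not subtracted. The members and lists were chosen with earlier results of these data known.

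UMIs were summed per class and library and scaled to 1000000 (CPM). Intervals are exact: Poisson for levels, binomial for shares, and binomial conditional on the sum for ratios. They cover counting error only. Classes needed 20 cells. A gene was called at 2-fold with at least 50 UMIs over both sides, ratios took 3 counts in place of 0, and none was formed where both sides had 3 or fewer. With 1 group and each class in 1 library there was no test. Named genes are the members, list genes past the call, and the 5 genes most like each member among those with at least 100 UMIs; list genes in the classes next to Cxcl12 sources were also named with their values. 1 list gene past the call is not reported here. Scores of position used 4 landmarks a side, as mean z values of UMIs scaled to 10000 per cell. The ratio and call functions were tested on simulated counts. Coordinates are from GENCODE vM21, which held 22490 of the 22508 symbols (99.92%). Python 3.11.15, numpy 2.4.6 and scipy 1.17.1 were used.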

Additional observations from a re-analysis of the deposited data

How the results depend on the processing

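Without the cell filter no ratio between classes or ranges moved beyond its interval. With 1 more marker per class Cxcl12 in central vein over sinusoidal endothelial-like cells reversed to 0.913, against 1.81; the cause was not tested. The same change moved portal or arterial over sinusoidal endothelial-like cells to 0.596 for Ackr1 (0.343) and 3.44 for Cxcl12 (1.91), and portal fibroblast-like over lymphatic endothelial-like cells to 0.824 for Ackr3 (1.05). With 1 fewer marker, portal or arterial over sinusoidal endothelial-like cells moved to 0.826 for Ackr1, 2.87 for Ackr3 (14.2), 0.555 for Ackr4 (0.132) and 2.73 for Cxcl12, portal fibroblast-like over lymphatic endothelial-like cells to 0.770 for Ackr3 and 16.0 for Ackr4 (1.64), and Cxcl12 in stellate-like over portal fibroblast-like cells to 4.41 (5.50). That last ratio was 6.12 without the deepest 5% of cells and 6.08 as a mean over cells. Without the deepest 5%, Ackr4 in portal fibroblast-like over lymphatic endothelial-like cells was 14.8 and Cxcl12 along the sinusoidal score 1.30 (0.783); as means over cells they were 3.76 and 1.24, and Cxcl12 in portal or arterial over sinusoidal endothelial-like cells was 4.34. That comparison gave 3.09 when cells of 2 gates were assigned to a class, a choice made after the data had been seen. Scores split into 2 ranges gave 0.473 for Ackr1 (0.376) on the sinusoidal and 3.71 for Ackr4 (6.19) and 1.16 for Cxcl12 (1.22) on the stellate one. Without replicate 2, 9 stellate-like cells remained. Ackr1 in sinusoidal endothelial-like over stellate-like cells was then 0.653 (0.254 to 2.405, on 4 stellate UMIs), against 1.10. Cxcl12 in stellate-like over portal fibroblast-like cells was 3.37, with 91 of its 190 stellate UMIs in 1 cell. Without replicate 1 only stellate-like values could be had, and these came from replicate 2 alone, so they could not change. Of 90 levels by class, 14 moved with 1 fewer marker, 10 with 1 more, 7 as means over cells, 6 with cells of 2 gates assigned, 5 without replicate 2 and 3 without the deepest cells. Of 10 shares of cells with a UMI, 8 moved when each cell was thinned to 1000 UMIs, all to lower values. Thinning takes UMIs away, so lower shares follow from it. No paired analysis was possible because the study has 1 group, with no groups to pair.

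Depth limits the small classes most: 3 counts amount to 51.0 CPM in natural killer or ILC1-like and 50.2 CPM in neutrophil-like cells, against 0.218 CPM in sinusoidal endothelial-like cells. All RNA is from dissociated cells, so levels bear on the cells that survived, and receptor protein was not measured.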

Other observations

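Cells outside the classes held part of the members' UMIs. The 195 cells of replicate 1 that passed 2 or more gates had 117 CPM of Ackr3 (104 to 131), with a UMI in 34.9% of them, and 69.6 CPM of Cxcl12. The 359 cells that passed no gate had 124 CPM of Cxcl12 (104 to 147), 81.8 CPM of Cxcr4 and 53.0 CPM of Ackr3, at a median of 1320 UMIs. The 597 cells removed for their mitochondrial share had 32.4 CPM of Cxcl12 and 5.41 CPM of Cxcr4. The 16 smooth muscle-like cells of replicate 1, too few for a class, had 18 Cxcl12 UMIs in 6 cells and 3 Ackr3 UMIs in 2 cells.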
